A study of Mus musculus with 12 samples.

Results

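The RAS, RAF, MEK and ERK genes measured here were *Nras*, *Hras*, *Braf*, *Map2k1*, *Map2k2*, *Mapk3* and *Map3k2*, which are 7 of the 55401 genes in the count table of mouse oocyte libraries. The first 6 were chosen by name, as genes of the mitogen-activated protein kinase (MAPK) cascade linked to follicle activation. That choice was made with earlier results of these data known. *Map3k2* was selected on its small p-value for dorsomorphin against control in primordial follicles, so its values in any comparison that uses the primordial libraries are given as a description, with no test. All 7 were found in the table by their Ensembl identifiers.

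RNA was sequenced from oocytes of primordial follicles, which are dormant, and of primary follicles, the first growing stage. The ovaries came from female F1 hybrid mice, labelled C57Bl/6j x CBA/J, 7 or 8 days old, and were cultured for 5 days with dorsomorphin (DM), an inhibitor of the energy sensor AMPK, or with the solvent DMSO (control). Each of the 4 groups had 3 libraries, and each library was made from 200 pooled oocytes cut by laser from fixed, paraffin-embedded sections, with the RNA amplified. The labels call the control sham and the material in vivo, whereas the methods describe culture with DMSO, and the DM dose behind these libraries was not stated (10 µM was the dose the culture work settled on). The paper's figure legends describe the 3 samples of each group as biologically independent. No label ties a library to one culture or animal, so the p-values below measure the spread between these libraries, which may be technical.

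The RAS proteins are small GTPases that are switched on below receptor tyrosine kinases such as KIT, the receptor for Kit ligand on the oocyte. Active RAS recruits a RAF kinase, RAF phosphorylates the kinases MEK1 and MEK2, and these phosphorylate the ERK kinases, which act on transcription factors and other kinases. In the ovary this cascade is known for carrying growth factor signals during follicle activation, oocyte growth and the resumption of meiosis. Its activity is set by phosphorylation, so transcript counts give only how much RNA of each component was captured.

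*Nras* and *Hras* encode RAS GTPases. *Nras* (ENSMUSG00000027852.14) lies on chromosome 3 at 103058285 to 103067914 on the plus strand of GRCm38, and *Hras* (ENSMUSG00000025499.18) on chromosome 7 at 141189105 to 141194005 on the minus strand. The kinase MEK1 is encoded by *Map2k1* (ENSMUSG00000004936.8, chromosome 9, 64185770 to 64253631, minus strand) and MEK2 by *Map2k2* (ENSMUSG00000035027.18, chromosome 10, 81105915 to 81133975, plus strand). *Braf* (ENSMUSG00000002413.15, chromosome 6, 39603237 to 39725463, minus strand) encodes a RAF kinase and *Mapk3* (ENSMUSG00000063065.13, chromosome 7, 126759601 to 126765819, plus strand) encodes ERK1. All positions are from the GENCODE annotation of that build.

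Because the counts of near-identical genes can be confused, the coding sequences of the RAS pair and of the MEK pair were compared in the reference genome. The 570 coding bases of *Nras* and the 570 of *Hras* were identical at 75.1% of positions, and their longest shared run was 23 bases. *Map2k1* and *Map2k2*, with coding lengths of 1182 and 1206 bases, shared a longer run of 56 bases. The run and its flanks are shown because they are the stretch where a read is hardest to assign. It crosses the junction from exon 3 to the next exon, so the coordinates include an intron that is not printed, and capitals mark the 6 differing positions of 86, read along the coding strand.
*Map2k1* chr9:64205166-64212646 (minus strand, spliced): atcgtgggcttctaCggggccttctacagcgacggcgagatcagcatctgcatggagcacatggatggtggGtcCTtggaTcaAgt
*Map2k2* chr10:81115110-81118174 (plus strand, spliced): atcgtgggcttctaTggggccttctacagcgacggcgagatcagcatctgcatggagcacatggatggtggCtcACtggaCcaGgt

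Such ambiguous stretches were a small part of each gene. Of all 50-base stretches in the annotated transcripts, 0% of *Hras* and 0.733% of *Nras* also occurred in another annotated gene. The MEK pair shared only 7 stretches, which were 0.207% of *Map2k1* and 0.122% of *Map2k2*. For *Mapk3* the share was 0.0428%. *Braf* had 0.691%, shared with 1 gene, *Ndufb2*, whose exons overlap those of *Braf* by 146 bases on the opposite strand. Whether counting used the strand was not stated, so reads from that overlap cannot be assigned to either gene.

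Total counts per library ranged from 14034586 to 42639326, and a count of 0 allowed up to 3 counts, or 0.0704 to 0.214 CPM (counts scaled to the total of the library). Amplified RNA was sequenced without molecular identifiers and reads are not independent molecules, and these limits cover counting error only. Between 1237 and 7072 genes per library had more than 100 counts. The oocyte markers, 14 genes of which 9 exceeded 100 counts in some library, summed to 6.84 to 1425 CPM. The same libraries held 2389 to 12864 CPM of 9 stromal markers and 13.1 to 11211 CPM of 11 granulosa cell markers, of which *Fshr* and *Cyp19a1* were at 0 in all 12 libraries. Endothelial markers reached 861 CPM and immune markers 16.5 CPM, with *Emcn* and *Adgre1* at 0 in all 12. In bulk samples such as these, fewer cells of a type and less RNA per cell cannot be told apart. The stromal sum lay above the oocyte sum in every library, so the members' counts cannot be assigned to oocytes alone.

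Each gene other than *Hras* exceeded 100 counts in 5 to 8 of the 12 libraries and was low in the rest. In the 84 pairs of a gene and a library, 39 held more than 100 counts. The number of libraries above 100 counts was 8 for *Braf* and *Mapk3*, 7 for *Map2k1*, 5 for *Nras*, *Map2k2* and *Map3k2*, and 1 for *Hras*. The sequence of counts below follows replicates 1, 2 and 3 of each group, and the plot of counts by library shows all of them.

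**Figure D1:**
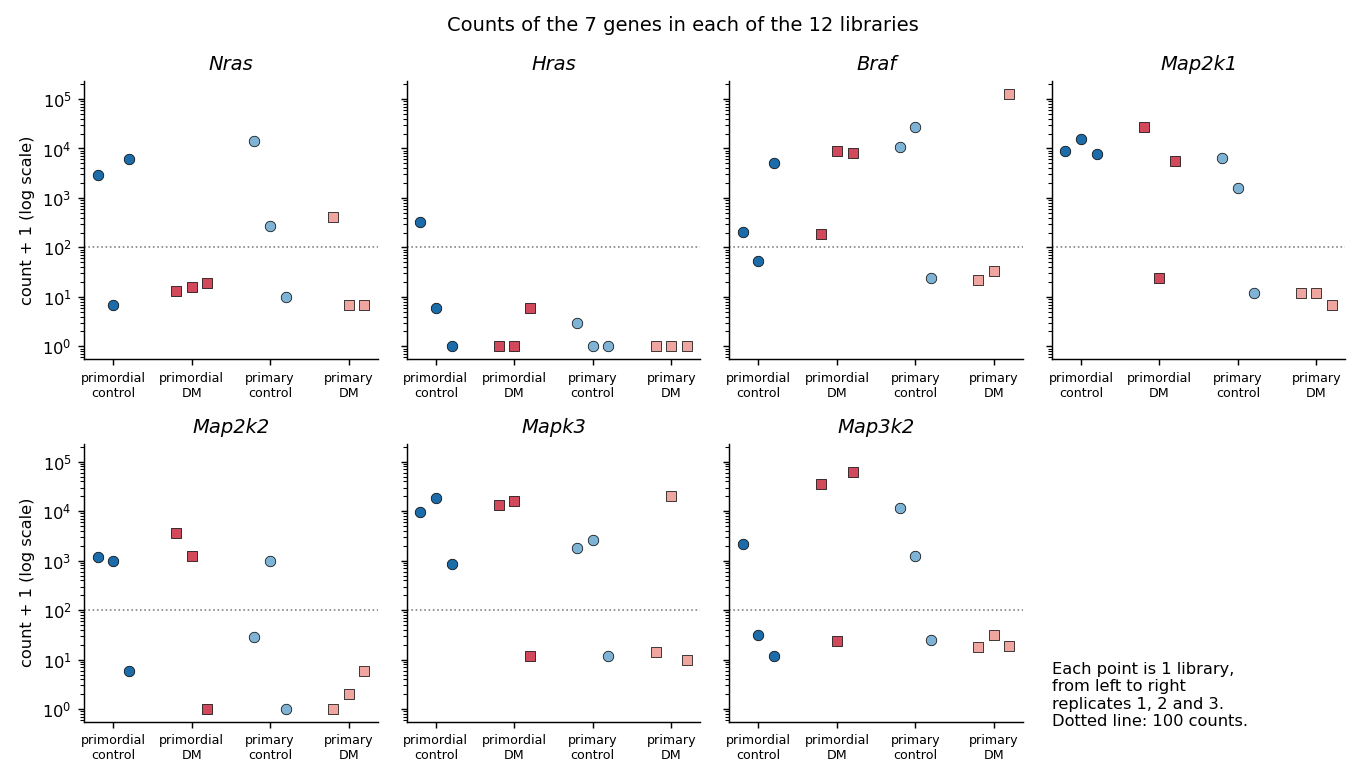
Counts of the 7 genes in each of the 12 libraries, as count + 1 on a log axis, with 1 point per library and replicates 1 to 3 from left to right in each group. Most genes have points on both sides of 100 counts within the same group, and 39 of the 84 points lie above the dotted line at 100 counts.

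*Nras* had 2859 counts or more in 3 control libraries, while no DM library exceeded 402. Primordial controls gave 2859, 6 and 6195 counts and primordial DM libraries 12, 15 and 18. Primary controls gave 13904, 264 and 9 counts and primary DM libraries 402, 6 and 6. All 3 primordial DM libraries were thus low, yet the lowest primordial control, replicate 2, was lower still, so the groups overlapped. The mean was 162 ± 218 CPM (SD, n = 3) in primordial controls and 0.533 ± 0.285 CPM (SD, n = 3) with DM.

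*Hras* was close to undetected. Its counts were 330, 5 and 0 in primordial controls, 0, 0 and 5 with DM, 2, 0 and 0 in primary controls, and 0 in all 3 primary DM libraries. Primordial control replicate 1 held 95.3% of its summed CPM, and no other library had more than 5 counts. A low level of *Hras* was therefore not detectable at this depth in most libraries.

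*Braf* had the highest count of any of the 7 genes, and that count came from 1 library. Counts in primordial follicles were 206, 52 and 5101 for controls and 183, 8824 and 7916 for DM. Counts in primary follicles were 10748, 26603 and 23 for controls and 21, 32 and 128110 for DM. Primary DM replicate 3 alone held 53.4% of its summed CPM, while the other two libraries of that group were among its 3 lowest. Both treatments had high and low libraries at each stage.

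*Map2k1* showed the most regular pattern. Its counts were 8767, 15748 and 7777 in primordial controls, and no other group had one of the 7 genes as high as 7777 counts in all 3 libraries. With DM, primordial follicles gave 27445, 23 and 5662 counts. Primary controls gave 6469, 1555 and 11 counts, and primary DM libraries 11, 11 and 6. The mean was 390 ± 144 CPM (SD, n = 3) in primordial controls and 0.276 ± 0.116 CPM (SD, n = 3) in primary follicles with DM, the lowest group.

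*Map2k2*, the other MEK gene, had at most 3589 counts in any library. The primordial libraries held 1189, 961 and 5 counts (controls) and 3589, 1252 and 0 counts (DM). The primary libraries held 28, 988 and 0 counts (controls) and 0, 1 and 5 counts (DM). The primary DM group was again low in all 3 libraries, but a library at 0 occurred in 3 of the 4 groups.

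*Mapk3*, which encodes ERK1, reached 9678, 18248 and 846 counts in primordial controls and 13403, 15728 and 11 with DM. For primary follicles the counts were 1795, 2621 and 11 without DM and 13, 20049 and 9 with it. Primordial group means were alike, at 268 ± 218 CPM in controls and 267 ± 236 CPM with DM (SD, n = 3). The primary DM mean of 157 ± 271 CPM (SD, n = 3) rested on replicate 2.

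*Map3k2* (ENSMUSG00000024383.9) encodes MEKK2, a MAPK kinase kinase known to act above MEK5 and ERK5 and above the JNK kinases rather than as a RAF. The gene lies on chromosome 18 at 32163089 to 32236751 on the plus strand of GRCm38, and 1.27% of its 50-base stretches also occurred in another annotated gene. Primordial controls held 2182, 30 and 11 of its counts and primordial DM libraries 36083, 23 and 62014. Primary controls held 11791, 1259 and 24 and primary DM libraries 17, 30 and 18. The primordial values are those that selected the gene. The primordial DM libraries included its 2 highest counts and a low one (23), which was below control replicate 2, so the groups overlapped.

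Per kilobase of annotated exon, the mean level over the 12 libraries fell in the order *Mapk3* (85.5 CPM per kilobase), *Map2k1* (60.5), *Braf* (41.1), *Map3k2* (26.2), *Nras* (14.5), *Map2k2* (3.81) and *Hras* (0.204). By the median the order was *Mapk3* (53.8 CPM per kilobase), *Map2k1* (44.3), *Braf* (9.32), *Nras* (0.121), *Map2k2* (0.102), *Map3k2* (0.0566) and *Hras* (0). *Mapk3*, *Map2k1* and *Braf* led in both orders, and *Hras* was last in both. Every gene ranged from near 0 to its maximum, and the maxima of *Braf*, *Mapk3*, *Map2k1* and *Map3k2* lay between 211 and 264 CPM per kilobase, so neighbours in these orders did not differ beyond their spread between libraries.

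DM against control in primordial follicles compares libraries cut as oocytes of dormant follicles, with and without the AMPK inhibitor. *Nras* had the lowest fold change of the members, with a log2 fold change (log2FC) of -7.68 (SE 3.93). It did not pass the quasi-likelihood test of edgeR (adjusted p = 0.658, by Benjamini-Hochberg over all genes tested). *Map2k2* was at 1.62 (SE 3.05), *Braf* at 1.41 (SE 2.47), *Mapk3* at 0.32 (SE 2.19) and *Map2k1* at 0.06 (SE 1.99), with adjusted p-values of 0.913 to 0.995. Fold changes of the last 4 were thus smaller than their standard errors. *Hras* was removed by the filter on low counts. A fit without the filter gave it -4.05 (SE 3.55, adjusted p = 0.600), which became 0.26 without primordial control replicate 1.

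With 1 library left out *Braf* ranged from 0.67 to 6.87, the highest without primordial control replicate 3. *Map2k1* turned to -0.32 without primordial control replicate 1 and to -0.95 without primordial DM replicate 1. The log2FC of *Mapk3* likewise turned to -0.16 without primordial control replicate 3 and to -0.40 without primordial DM replicate 2. *Map3k2*, whose unadjusted p of 0.000115 in this comparison selected it, had a log2FC of 7.32 (SE 1.90), given here as a description. Its nearest counterpart outside the rule was *Nras*, with an unadjusted p of 0.0509.

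None of the other 6 genes was called by edgeR in primordial follicles, where 1 of 6699 genes tested, 0.0149%, had an adjusted p under 0.05. At an unadjusted p under 0.05 edgeR again called 0 of them, against 7.33% of all genes tested. DESeq2 called 1, *Nras*, with a log2FC of -7.22 and an adjusted p of 0.0192, beside 12.5% of the genes it tested. The groups did not overlap for 0 of the 7 genes and for 13.0% of the genes tested. Of the 5 genes other than *Map3k2* that passed the filter, 4 had a positive log2FC and 1 a negative one, with a median of 0.32 beside 0.13 over all genes tested. With library size in place of TMM scaling this split became 2 and 3.

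**Figure D2:**
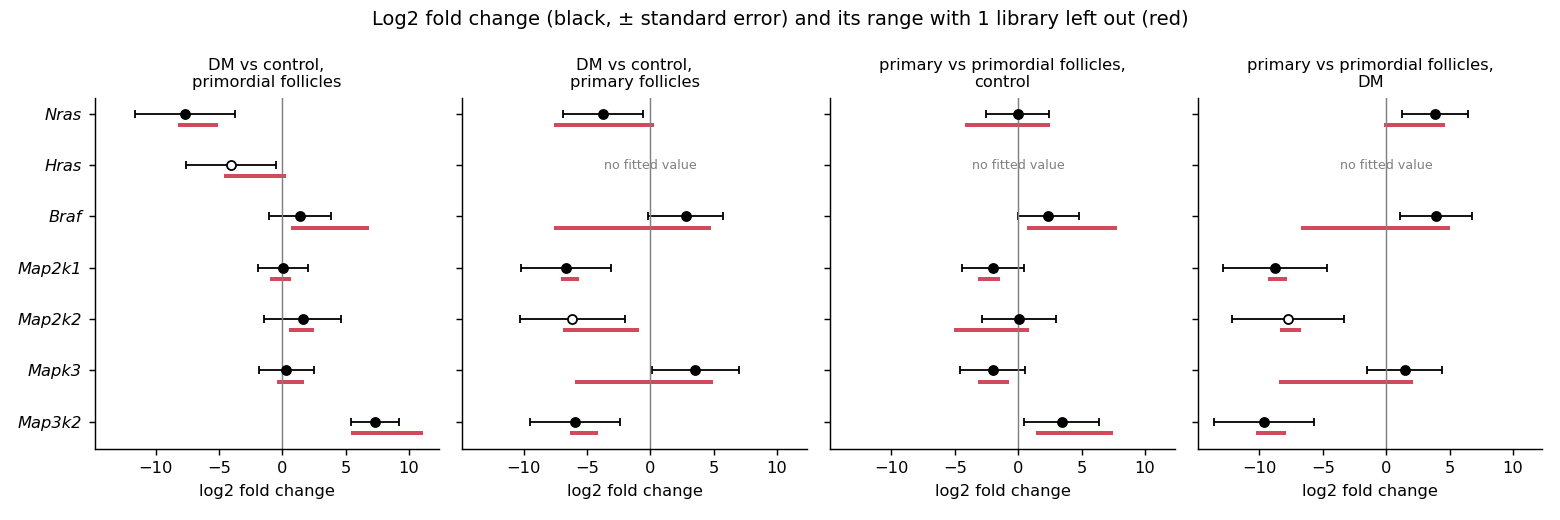
Log2 fold changes of the 7 genes in 4 comparisons from edgeR (black points, bars ± 1 standard error; open points from a fit without the filter on low counts) and the range of the estimate with each library left out in turn (red). The red ranges of *Hras* and *Map2k2* lack a library where its removal left every library of a group at 3 counts or fewer. In primary follicles with DM the ranges of *Braf* and *Mapk3* cross 0 and reach -7.63 and -5.96. Those of *Map2k1* and *Map3k2* stay below 0.

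DM against control in primary follicles was the comparison in which the test of *Map3k2* was independent of its selection. Its 3 DM libraries, at 0.618, 0.704 and 0.513 CPM, lay below all 3 controls, at 346, 89.7 and 0.771 CPM. This was 1 of the 7 genes with groups that did not overlap, a property of 13.0% of the genes tested. The log2FC of -5.94 (SE 3.51) did not pass the test (edgeR adjusted p = 0.407). The third control lay just above the highest DM library, so the groups barely parted.

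*Map2k1* had a log2FC of -6.64 (SE 3.57, edgeR adjusted p = 0.396) in primary follicles. Leaving out any 1 library kept it between -7.03 and -5.64. *Map2k2*, which the filter removed, had -6.16 (SE 4.13, edgeR adjusted p = 0.393) in a fit without the filter. With 1 library left out it ranged from -6.89 to -0.88. For primary DM replicate 3 no left-out value was taken, as the other DM counts were 0 and 1. Both MEK genes were low in all 3 DM libraries, and for both the third control was low as well. For *Map2k2* the first control was also low, at 28 counts. Its value of -0.88 was the one without primary control replicate 2, which held 988 counts. Neither passed the test.

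*Nras* had a log2FC of -3.72 (SE 3.17, edgeR adjusted p = 0.531), which became 0.29 without primary control replicate 1. For *Braf* it was 2.79 (SE 2.97, adjusted p = 0.615), and -7.63 without primary DM replicate 3. *Mapk3* had 3.56 (SE 3.45, adjusted p = 0.582), and -5.96 without primary DM replicate 2. The direction of each of these 3 genes therefore rested on 1 library. *Hras* had at most 2 counts in every primary library, so no fold change was computed.

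In primary follicles edgeR called 0 of the 6 genes tested at an adjusted p under 0.05, as it did for 0% of all 4181 genes tested. It also called 0 at an unadjusted p under 0.05, against 12.2% of all genes tested. DESeq2 gave an adjusted p to *Map2k1* (0.104) and *Map3k2* (0.168) but not to *Nras*, *Braf*, *Map2k2* or *Mapk3*. Neither *Map2k1* nor *Map3k2* was called by it, against 20.8% of the genes it tested. Of the 5 genes that passed the filter, 2 had a positive and 3 a negative log2FC. Their median of -3.72, which is the value of *Nras*, stood beside 0.31 over all genes tested. Without *Map3k2* the split was 2 and 2, with a median of -0.47. With DESeq2's size factors that median was 1.95, beside 2.04 over all genes tested. The primary DM libraries had 1464 to 2240 genes above 100 counts, against 1237 to 4305 in primary controls.

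The comparison of primary with primordial control libraries addresses the step from dormancy to growth without DM. *Map2k1* was lower in primary follicles, with the groups not overlapping (189.8, 111 and 0.354 CPM against 232, 425 and 514 CPM), but its log2FC of -2.02 (SE 2.45) did not pass the test (edgeR adjusted p = 0.915). It was the only one of the 7 genes whose groups did not overlap, against 9.69% of the genes tested. This parting was in CPM on library totals. With TMM factors over all 12 libraries (1.59 for primary control replicate 1, 2.87 for primordial control replicate 1) the *Map2k1* groups overlapped. *Mapk3* was at -2.01 (SE 2.54, adjusted p = 0.925), and *Braf* at 2.39 (SE 2.39, adjusted p = 0.888). With 1 library left out *Mapk3* ranged from -3.13 to -0.71 and *Braf* from 0.66 to 7.78, the highest without primordial control replicate 3. *Nras*, at -0.04 (SE 2.48), and *Map2k2*, at 0.07 (SE 2.95), had estimates near 0 with intervals too wide to show that the stages were alike.

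Without primordial control replicate 3 the log2FC of *Nras* became 2.54, and it became 0.60 and 0.61 without primary control replicates 2 and 3. For *Map2k2* it became -5.10 without primary control replicate 2 and -0.54 without primordial control replicate 3. *Hras* was at least 22.2-fold lower in primary controls, taken against a floor of 3 counts in each primary library. That bound rested on primordial control replicate 1 and was 0.508 without it, which is no bound. *Map3k2*, as a description, had a log2FC of 3.42 (SE 2.97). With edgeR 0 of the 5 members tested were called, as were 0% of 6726 genes tested. At an unadjusted p under 0.05 it called 0 of them and 6.44% of all genes tested, and DESeq2 called 0, against 5.80%.

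Between stages after DM, *Map2k1* had the smallest unadjusted p of the members tested. The 3 primary DM libraries held 0.400, 0.258 and 0.171 CPM and the 3 primordial DM libraries 718, 0.659 and 269 CPM, so that the groups did not overlap. Non-overlapping groups occurred for 1 of the 7 genes, *Map2k1*, and for 18.5% of the genes tested. The *Map2k1* groups parted at low counts, 11 in primary DM replicate 1 and 23 in primordial DM replicate 2. With TMM factors over all 12 libraries (0.261 for primary DM replicate 2, 1.26 for primordial DM replicate 2) they overlapped. The log2FC was -8.77 (SE 4.07), with an edgeR adjusted p of 0.286. Its unadjusted p was 0.0349, a level reached by 17.2% of the genes tested and by 1 of the 5 members tested. DESeq2 called it, with a log2FC of -7.36 and an adjusted p of 0.0104, as it did 24.2% of the genes it tested. The members' counts thus lay near the shares over all genes.

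*Map2k2*, again outside the filter, had a log2FC of -7.77 (SE 4.43, edgeR adjusted p = 0.352). *Nras* was at 3.84 (SE 2.58, adjusted p = 0.397), *Braf* at 3.93 (SE 2.81, adjusted p = 0.424) and *Mapk3* at 1.45 (SE 2.96, adjusted p = 0.809). Each of these 3 turned negative without a single primary DM library. The value was -0.17 for *Nras* without replicate 1, -6.75 for *Braf* without replicate 3 and -8.48 for *Mapk3* without replicate 2. *Map3k2*, as a description, had -9.63 (SE 3.95), and *Hras*, at or under 5 counts in all 6 libraries, was given no fold change. By edgeR's adjusted p, 0 of the members and 0% of 4331 genes were called.

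The difference between the DM effects in the 2 stages was tested over all 12 libraries. It was -6.45 (SE 4.09, edgeR adjusted p = 0.363) for *Map2k1*, -7.64 (SE 4.56, adjusted p = 0.337) for *Map2k2* and 4.16 (SE 4.06, adjusted p = 0.569) for *Nras*, as primary minus primordial log2FC. For *Braf* it was 1.68 (SE 3.17, adjusted p = 0.798), which became -8.86 without primary DM replicate 3 and -3.89 without primordial control replicate 3. For *Mapk3* it was 3.72 (SE 3.70, adjusted p = 0.579), which became -6.19 without primary DM replicate 2. None of these passed the test, and 0 passed at an unadjusted p under 0.05, against 18.9% of 8500 genes tested (0% by adjusted p). DESeq2 also called 0, against 11.5% of its genes. *Map3k2* had -13.07 (SE 4.47), which contains the contrast that selected it and is given without a test.

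The members' low counts were of the same order as those of well-counted genes, relative to each gene's sum. For each gene the 12 libraries were divided at the widest gap in log2(count + 1). *Map2k1* then had at most 23 counts in its low libraries and at least 1555 in its high ones. The corresponding limits were 13 and 846 for *Mapk3*, 30 and 1259 for *Map3k2*, 28 and 961 for *Map2k2*, 18 and 264 for *Nras*, 206 and 5101 for *Braf* and 5 and 330 for *Hras*. The median count of the low libraries, as a share of the gene's own summed count, was 0.0380% for *Nras*, 0.0224% for *Braf*, 0.0203% for *Map3k2*, 0.0150% for *Map2k1*, 0.0133% for *Mapk3*, 0.0125% for *Map2k2* and 0% for *Hras*.

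Over the 4329 genes with at least 10000 summed counts, the median of that share was 0.0193% (quartiles 0.0143% and 0.0338%). The medians over that set were 6 of 12 libraries above 100 counts, 47.0% of the summed CPM in 1 library and a widest gap of 4.19 log2 units. The members' gaps ran from 3.80 for *Nras* to 6.02 for *Map2k1*. Only 176 of the 4329 exceeded 100 counts in every library. A split into high and low libraries was thus seen in well-counted genes at large and not only in the cascade. What sets the low counts was not tested.

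**Figure D3:**
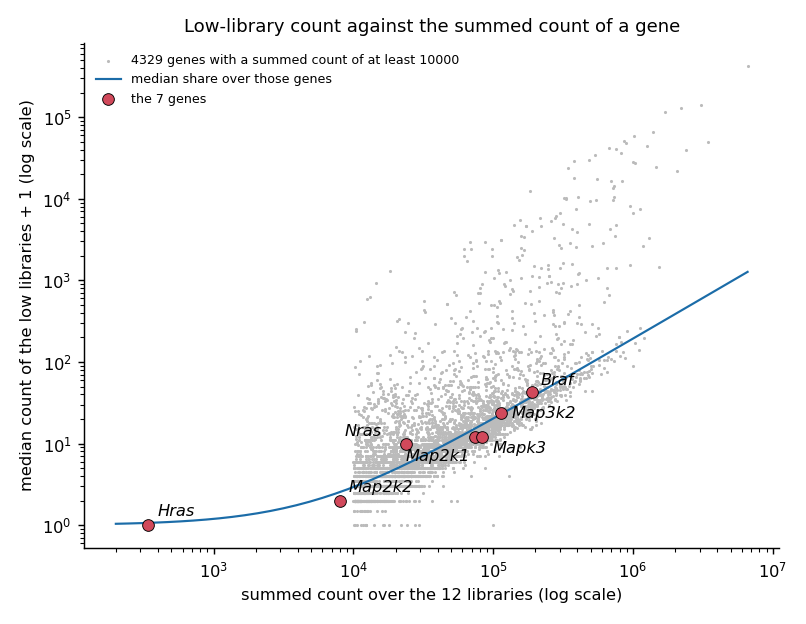
Median count in a gene's low libraries (+ 1) against its summed count over the 12 libraries, both on log axes, for the 7 genes (red) and 4329 genes with at least 10000 summed counts (grey), with the low count at the median share of 0.0193% as a line. The 7 genes lie near the line, from *Hras* with 342 summed counts to *Braf* with 187819. At median low counts of 0 (*Hras*) and 1 (*Map2k2*) the added 1 largely sets the position, so nearness to the line says little about their shares.

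How many members a library showed moved with how many genes it showed in general. More than 100 counts were reached by 7, 3 and 4 of the 7 genes in primordial controls, by 5, 3 and 3 with DM, by 5, 6 and 0 in primary controls and by 1, 1 and 1 with DM. In the primary DM libraries the genes above 100 counts were *Nras* in replicate 1, *Mapk3* in replicate 2 and *Braf* in replicate 3, a different member each time. Over the 3 libraries of a group, 66.7% of member values exceeded 100 counts in primordial controls, 52.4% with DM, 52.4% in primary controls and 14.3% with DM. The shares for the 4329 well-counted genes were 68.3%, 55.9%, 52.6% and 33.1% in the same order.

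The primary DM group was thus the lowest for the members and for genes at large, and its members' share was also below that of the well-counted genes. That gap rested on 21 values from 3 libraries and was not tested. The members' share also included *Hras* and *Map2k2*, whose summed counts of 342 and 8018 lay below the minimum set for the well-counted genes. The members and the well-counted genes were therefore not chosen by the same cut, and how much of the gap came from this was not tested. Stromal markers summed to 12864, 3343 and 2389 CPM in primary DM replicates 1, 2 and 3, so the high end rested on 1 library. They summed to 2785 to 6492 CPM in primary controls. The ranges were 2472 to 4358 CPM in primordial DM and 2546 to 4097 CPM in primordial control libraries. Oocyte markers spanned 56.4 to 1115 CPM in primary DM libraries and 34.7 to 1425 CPM in primary controls. Whether these marker levels had a part in the members' values was not tested.

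**Figure D4:**
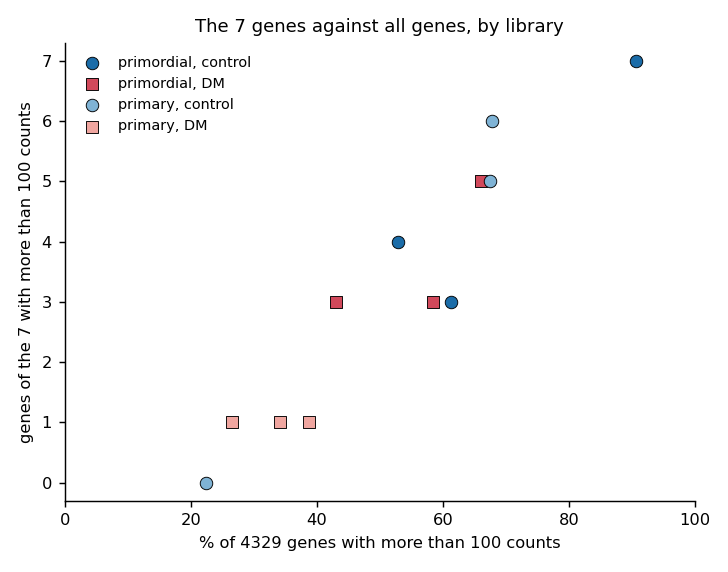
Number of the 7 genes with more than 100 counts in each library against the percentage of 4329 well-counted genes with more than 100 counts in the same library, 1 point per library. Points run from primary control replicate 3 (0 genes, 22.4%) to primordial control replicate 1 (7 genes, 90.6%), and the primary DM libraries each show 1 gene at 26.5% to 38.7%.

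The members varied largely apart from each other. Over the 21 pairs the Pearson correlation of log2(CPM + 1) across the 12 libraries ran from -0.19 to 0.71 with a median of 0.23, as a description. It was highest for *Map2k2* with *Mapk3* (0.71), followed by *Map2k1* with *Map3k2* (0.64), and was 0.43 for the MEK pair and 0.30 for the RAS pair. Libraries contribute a shared depth and number of detected genes to every such value.

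Genes outside the cascade tracked the members more closely than the members tracked each other, being the highest values in a search among 8493 genes. The most similar were *Purg* (r = 0.95) and *Fis1* (0.95) for *Nras*, *Atf7* (0.99) and *Hnrnpab* (0.96) for *Map2k1*, *Aco1* (0.99) and *Clk1* (0.98) for *Map2k2*, and *Lama2* (0.97) and *Csnk2b* (0.95) for *Mapk3*. For *Map3k2* they were *Otud7b* (0.98) and *Ints3* (0.96), and for *Braf* the predicted genes *Gm10722* (0.90) and *Gm10801* (0.86). *Gm10722* had at most 85 counts and *Gm10801* at most 393 in any library, against up to 128110 for *Braf*. *Hras* matched *Ccdc58* and *Slc9a7* (both 0.99), genes with most counts in the same library. All are descriptions over 12 libraries, with no test.

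The rest of the cascade was followed through 41 other genes, from receptors and adaptors to ERK targets. They exceeded 100 counts in a median of 5 of the 12 libraries, the range being 0 to 12. The receptor gene *Igf1r* and *Nf1*, whose product switches RAS off, did so in all 12. By group, 51.2% of these genes' values exceeded 100 counts in primordial controls, 43.9% with DM, 39.0% in primary controls and 20.3% with DM. The shares for the 4329 well-counted genes were 68.3%, 55.9%, 52.6% and 33.1% in the same order. The 41 genes were not chosen by the minimum set for those genes. The 8 receptor and adaptor genes were seen most, with a median of 7 libraries, and the 6 phosphatase and feedback genes least, with a median of 0.5 and 3 genes never above 100 counts.

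In primordial follicles 26 of the 41 could be tested for DM, with 14 positive and 12 negative log2FCs, a median of 0.06 and 0 called by edgeR after adjustment. At an unadjusted p under 0.05, reached by 7.33% of all genes tested, it called 1, *Grb2*, an adaptor that links receptors to RAS. Controls held 244, 3 and 6 of its counts and DM libraries 2, 11 and 14862, so its log2FC of 8.0 (SE 3.42, edgeR adjusted p = 0.645) came from 1 library.

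In primary follicles 18 could be tested, with 7 positive and 11 negative log2FCs, a median of -1.03 and 0 called after adjustment. At an unadjusted p under 0.05 edgeR called 4, all negative, which was 4 of 18 beside 12.2% of all genes tested. The one with the smallest p, *Rras2*, a relative of the RAS genes, had 3918, 22 and 145900 counts in controls and 39, 31 and 48 with DM, with a log2FC of -11.20 (SE 4.01, edgeR adjusted p = 0.395).

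Between stages in controls, 27 of the pathway genes were tested with 0 called after adjustment, and 2 had an unadjusted p under 0.05, both positive, beside 6.44% of all genes tested. The one with the smallest p was *Elk1*, a transcription factor that ERK phosphorylates, with 872, 4 and 29383 counts in primary and 396, 1553 and 10 in primordial controls. Its log2FC was 6.33 (SE 2.72, edgeR adjusted p = 0.749). Between stages after DM, 20 were tested, with 0 called after adjustment and 3 at an unadjusted p under 0.05, 2 positive and 1 negative, beside 17.2% of all genes tested. *Egfr*, a receptor tyrosine kinase, had the smallest p, with 22, 113032 and 21 counts in primary and 18, 50 and 36 in primordial follicles, and a log2FC of 11.55 (SE 3.84, edgeR adjusted p = 0.286). In the test of the difference between DM effects, 33 were tested, 0 were called and 11 had an unadjusted p under 0.05, 4 positive and 7 negative, beside 18.9% of all genes tested.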

How the data were processed

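The authors trimmed reads with trim_galore, mapped them to mm10 and counted them per gene with featureCounts. The paper names TopHat2 as the aligner and the submitters' processing notes name STAR. The deposited values are raw counts per gene, without normalization, for 12 libraries of oocyte RNA in 4 groups of 3, and 55141 of 55401 identifiers were matched to a symbol.

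Counts were analysed in R 4.3.3 with edgeR 4.0.16 (filterByExpr, TMM, glmQLFit, glmQLFTest, prior count 0.125) on the libraries of the groups compared, over all genes passing the filter, calling an adjusted p (Benjamini-Hochberg) under 0.05. CPM used total counts, without TMM factors, which enter the fold changes. The code was tested on simulated data. Members and lists were chosen with earlier results of these data known. Named beyond the 7 members were, per comparison, the pathway gene with the smallest unadjusted p, and for each member the 2 most similar genes. Other genes were named after their values were seen, to spell out a count or range: *Igf1r*, *Nf1* and the markers *Fshr*, *Cyp19a1*, *Emcn* and *Adgre1*. Some genes and sequences are not reported here. Alternatives were DESeq2 1.42.0, other scalings and filters, an unadjusted p, a prior count of 2, a replicate block, 1 fit of all 12 libraries and each library left out in turn. No left-out fold change was taken where removing a library left every library of a group at 3 counts or fewer. Libraries of a group differed by a chi-square of at least 1588 per degree of freedom, so each was kept as 1 sample. Sequences and tables used Python 3.11.15. The protein, imaging and culture data of the study were not analysed here.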

Additional observations from a re-analysis of the deposited data

How the results depend on the processing

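For the 31 member fold changes, 443 alternative values were computed. Of these, 36 reversed direction, in 13 fold changes, and 18 fold changes kept their direction throughout. None of this concerns a called member, and the cause was not tested.

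With 1 library left out, log2 fold changes that reversed ranged as follows. For DM in primordial follicles, -4.64 to 0.26 (*Hras*), -0.95 to 0.69 (*Map2k1*) and -0.40 to 1.74 (*Mapk3*). For DM in primary follicles, -7.63 to 0.29 (*Nras*), -7.63 to 4.81 (*Braf*) and -5.96 to 4.91 (*Mapk3*). Between stages in controls, -4.23 to 2.54 (*Nras*) and -5.10 to 0.82 (*Map2k2*), and with DM, -0.17 to 4.65 (*Nras*), -6.75 to 5.03 (*Braf*) and -8.48 to 2.09 (*Mapk3*). For the interaction, -8.86 to 3.39 (*Braf*) and -6.19 to 4.77 (*Mapk3*).

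Scaling by library size reversed *Map2k1* (-0.25) and *Mapk3* (-0.00325) for DM in primordial follicles, *Mapk3* between stages with DM (-0.77) and the *Braf* interaction (-0.16). It moved the median of all genes from 0.13 to -0.41 for DM in primordial follicles and from 0.31 to -0.87 in primary follicles, where DESeq2's size factors gave 2.04. A minimum of 10 counts gave -0.0395 for *Map2k1* with DM in primordial follicles. Between control stages, 1 fit of all 12 libraries gave 0.00675 for *Nras* and -0.0535 for *Map2k2*, and DESeq2 gave -0.00181 for *Map2k2*.

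Same-numbered libraries did not deviate together (correlations -0.046 to 0.0497 over 12 pairs), so the numbers were not taken as pairing. With a replicate block the values were -0.81 (*Map2k1*) and -0.85 (*Mapk3*) for DM in primordial follicles, -6.48 (*Braf*) and -1.08 (*Mapk3*) in primary follicles, 2.60 (*Nras*) and -2.87 (*Map2k2*) between control stages, -1.67 (*Braf*) and -0.51 (*Mapk3*) between stages with DM and -6.50 for the *Braf* interaction.

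Genes called for DM in primordial follicles, 1 by edgeR, were 491 at an unadjusted p and 688 by DESeq2. They were 0 under the block, other scalings, no filter, a minimum of 10 counts or 1 fit of all libraries, and 0 to 3 with 1 library left out (3 without primordial DM replicate 1). In the other comparisons edgeR called 0. An unadjusted p and DESeq2 gave 508 and 707 for DM in primary follicles, 433 and 292 between control stages (1 by library size, 4 with a minimum of 10 counts), 746 and 987 between stages with DM (0 to 4 with 1 library left out, the highest without primary DM replicate 2) and 1605 and 593 for the interaction. Members called, 0 by edgeR, were 1 by DESeq2 for DM in primordial follicles (*Nras*), and 1 at an unadjusted p and 1 by DESeq2 between stages with DM (*Map2k1*). At a median standard error of 2.82 to 4.14 log2 units, changes of a few fold could not be detected.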
